A study of Sus scrofa with 80 samples.

Results

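CD (cluster of differentiation) antigens are cell surface molecules that were first catalogued by the antibodies that tell white blood cells apart. The genes described here are all 60 genes of the array, of 23722 with a usable value, whose name is CD followed by a number and, where present, further letters and a number. They were measured in tissues of Göttingen minipigs on single-color custom Agilent arrays, and the values are log2 intensities after background correction and quantile normalization. Spleen, bone marrow, cerebral cortex, hypothalamus, cerebellum, liver and kidney were represented by a male and a female sample at 1 week and 4 weeks, both called younger here, at 2 and 4 months, both called older, and by 1 male sample at 2 years. Testis was taken from 1 male at each of these 5 ages and ovary from 1 female at each age up to 4 months. All animals were of a single breed and were killed with pentobarbital, and the labels name no drug treatment. The 2-year-old male differed in housing and food, because it was raised for most of its life at another site, and its arrays lie on 2 slides of their own. The labels do not say whether the tissues of a given age and sex came from the same animal, and the male and the female are the repeats of an age, so the p-values measure the spread between these pairs of samples.

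In the blood system, hematopoietic stem and progenitor cells of the bone marrow give rise to red cells, platelets, granulocytes, monocytes and B cell precursors, while T cells mature in the thymus. The spleen filters blood through its red pulp, which is rich in macrophages, and holds mature T and B cells in its white pulp. In young mammals the spleen can also carry out blood cell formation, which it loses with maturation. Many CD antigens mark a single lineage: the CD3 chains belong to the T cell receptor, CD79A and CD79B to the B cell receptor, CD33 and the CD300 family to myeloid cells and CD34 to progenitors and vessels. In bulk tissue, fewer cells of a type and less RNA per cell cannot be told apart, and a symbol on the array is the name of the gene that its probes were designed for, without a test of the protein at the surface.

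The members were grouped by the blood lineage they are known for into 16 T and NK (natural killer) cell genes, 7 B cell genes, 15 genes of myeloid and antigen-presenting cells, 4 pan-leukocyte genes, 7 genes of progenitors, platelets, endothelium and stroma, and 9 broadly expressed genes. CD2BP2, an intracellular protein that binds the tail of CD2 and takes part in splicing, and CD3EAP, a subunit of RNA polymerase I, match the name pattern but are no CD antigens. CD5L is likewise no surface antigen but a protein secreted by tissue macrophages, and is kept with the myeloid genes. Before correction, the gene spots of an array had a median intensity of 38 to 49 in the 8 spleen samples up to 4 months and 29.5 to 53 in the 8 bone marrow samples. All 8 samples of the tissue lay above the detection limit, the 95th percentile of the negative control spots of an array, for 51 members in spleen and 45 in bone marrow. Genes that define the tissues lay where the labels put them. TLX1, the transcription factor of spleen development, ranged from 10.47 to 12.40 with a median of 11.87 in spleen and from 2.65 to 4.08 with a median of 3.45 in bone marrow, and AZU1, a neutrophil granule protein made by marrow precursors, ranged from 4.64 to 12.92 with a median of 5.99 in spleen and from 14.61 to 15.87 with a median of 14.97 in bone marrow.

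The first comparison asked which CD-named genes differ between spleen and bone marrow up to 4 months. Spleen had the higher level of 27 of the 60 members, 45% against 23.7% of all genes, and bone marrow of 9 members, 15% against 20.1% of all genes, both by limma over tissue and age with a Benjamini-Hochberg adjusted p under 0.05. The median difference, spleen minus marrow, was 0.23 log2 units over the members and 0.01 over all genes. By lineage, the genes higher in spleen were 9 of 16 T and NK cell members, 4 of 7 B cell members, 9 of 15 myeloid members and 2 of 4 pan-leukocyte members, whereas 4 of 7 members of the progenitor, platelet, endothelial and stromal list were higher in bone marrow. The median difference was 0.58 for T and NK cell members, 1.39 for B cell members, 0.43 for myeloid members, 0.45 for pan-leukocyte members and −0.40 for the progenitor and stromal list. With a difference of at least 2-fold required as well, 15 members were higher in spleen, 25% against 5.18% of all genes, and 1, CD9, in bone marrow, 1.67% against 5.86%. With an offset of 50 added to the intensities, which compresses weak signals, the medians were 0.20 for T and NK cell, 0.61 for B cell and 0.09 for myeloid members. Of the 27 and 9 genes, 18 and 7 differed in the same direction on at least 6 of the 7 slides that hold both tissues. With slide as a fixed term in place of age, 16 and 4 members were called, and 3009 and 2364 of all genes in place of 5633 and 4769. With slide beside tissue and age over the 7 tissues sampled in both sexes all 36 calls remained. The spleen age calls of CD226, CD274, CD44 and CD5L and the CD247 difference between age changes, given further on, were lost in that fit.

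**Figure D1:**
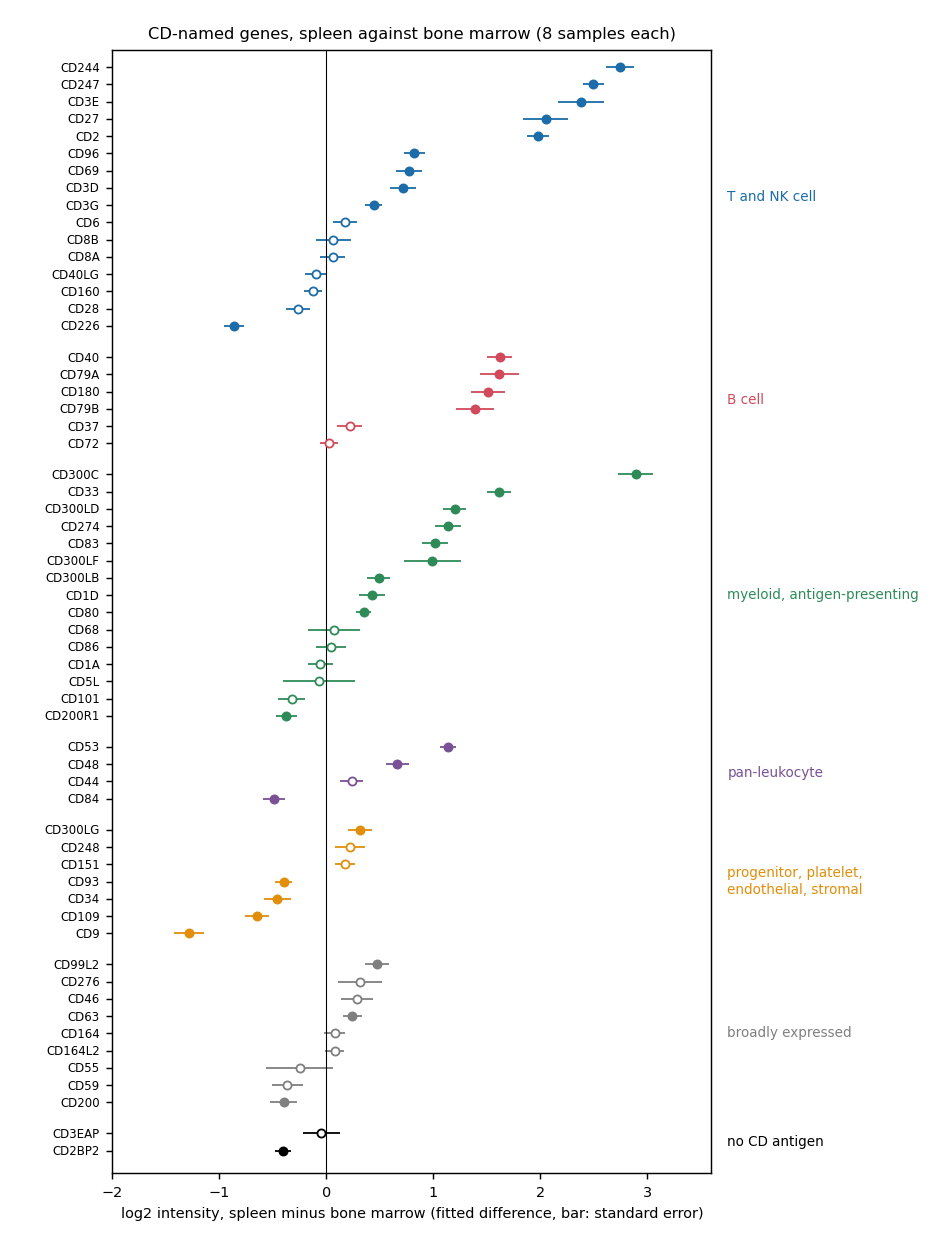
Fitted difference in log2 intensity, spleen minus bone marrow, of 59 CD-named genes, grouped by lineage, with the standard error as a bar and 8 samples per tissue; filled points have an adjusted p under 0.05. T and NK cell, B cell and myeloid genes reach up to 2.89 on the spleen side, and the furthest point on the marrow side is CD9 at −1.28.

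Among the T and NK cell members, CD244, a receptor of NK cells and some T cells that binds CD48, differed the most. Its log2 level ranged from 7.59 to 10.05 with a median of 9.73 in spleen and from 5.89 to 7.42 with a median of 6.43 in bone marrow, so that the groups did not overlap, and the difference of 2.75 ± 0.13 (adjusted p = 1.30e-08) corresponds to 6.71-fold. CD247, the zeta chain through which the T cell receptor and some NK receptors signal, ranged from 9.66 to 12.63 with a median of 12.50 in spleen and from 7.73 to 10.77 with a median of 9.62 in bone marrow. The ranges are wide and overlap, but spleen was higher in all 8 pairs of the same age and sex, by 2.49 ± 0.10 (adjusted p = 2.51e-09). CD3E, a chain of the CD3 complex, ranged from 7.67 to 10.99 with a median of 10.62 in spleen and from 5.22 to 9.63 with a median of 7.95 in bone marrow, a difference of 2.38 ± 0.21 (adjusted p = 2.13e-06). CD2, an adhesion molecule of T and NK cells, differed by 1.98 ± 0.10 (adjusted p = 2.06e-08), and CD27, a costimulatory receptor of the TNF receptor family, by 2.05 ± 0.21 (adjusted p = 6.18e-06), each higher in spleen in 8 of 8 pairs. CD3D and CD3G, the further chains of the complex, had smaller differences, CD3D by 0.72 ± 0.12 (adjusted p = 3.38e-04), with only 3 of 8 marrow samples well above background, and CD3G by 0.44 ± 0.08 (adjusted p = 6.21e-04). In the RefSeq annotation of the pig (assembly Sscrofa11.1) CD3E, CD3D and CD3G are neighbours on chromosome 9. CD69, an early activation marker, and CD96, an adhesion receptor of T and NK cells, were not well above background in any bone marrow sample with the probes under their symbols, so the excess in spleen that these probes give is taken as a lower bound. In spleen CD69 was well above background in 4 and CD96 in 6 of 8 samples, so the spleen side is also near the floor. The excess was at least 1.71-fold for CD69 (adjusted p = 2.50e-04) and at least 1.77-fold for CD96 (adjusted p = 2.42e-05). Here the marrow level is the higher of the gene's own signal and the lowest signal of any gene well above background on that array, which left the fitted folds unchanged. A second probe set of CD96 ranged over the 16 samples from 4.17 to 7.59 and differed by 1.62 ± 0.12 (adjusted p = 3.49e-07).

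CD226 (DNAM-1), an activating receptor of NK and T cells that is also found on platelets, was the only T and NK cell member called higher in bone marrow. Its levels ranged from 3.78 to 5.71 with a median of 5.10 in spleen and from 5.15 to 6.41 with a median of 5.81 in bone marrow. The difference was −0.86 ± 0.09 (adjusted p = 9.33e-06), and marrow was higher in all 8 pairs. For 6 members the difference did not pass the test, and several of them gave little signal. CD8A, a chain of the coreceptor of cytotoxic T cells, CD28, the main costimulatory receptor of T cells, and CD160, an NK cell receptor, were not well above background in any sample of either tissue. CD8B, the partner of CD8A, was well above background in all 16 samples, from 3.45 to 4.33 with a median of 3.88 in spleen and from 3.24 to 4.19 with a median of 3.90 in bone marrow, with a difference of 0.07 ± 0.16 (adjusted p = 0.779). For CD6, a T cell scavenger receptor family member with a difference of 0.18 ± 0.11 (adjusted p = 0.217), no bone marrow sample was well above background. CD40LG, the ligand through which helper T cells act on B cells, had a difference of −0.09 ± 0.10 (adjusted p = 0.492).

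Of the B cell members, the 2 signaling chains of the B cell receptor were higher in spleen. CD79A ranged from 5.72 to 9.05 with a median of 8.08 in spleen and from 4.71 to 7.17 with a median of 6.15 in bone marrow, with a difference of 1.62 ± 0.19 (adjusted p = 1.75e-05). For CD79B the levels ranged from 9.86 to 12.78 with a median of 12.09 in spleen and from 8.44 to 11.17 with a median of 10.59 in bone marrow, with a difference of 1.39 ± 0.18 (adjusted p = 4.46e-05). The 1-week spleen samples of both genes lay within the marrow range. CD40, the receptor through which T cells help B cells, ranged from 5.01 to 7.21 with a median of 6.55 in spleen and from 4.38 to 5.18 with a median of 4.68 in bone marrow, a 3.08-fold difference (1.62 ± 0.12, adjusted p = 3.15e-07) seen in 8 of 8 pairs. CD180, a Toll-like receptor homolog of B cells, differed by 1.51 ± 0.16 (adjusted p = 8.65e-06), and only 1 of 8 marrow samples was well above background. CD37, a leukocyte tetraspanin, had a difference of 0.22 ± 0.12 (adjusted p = 0.156), and CD72, an inhibitory B cell receptor, was not well above background in either tissue. CD79B, CD79A, CD40 and CD180 were higher in spleen in 5, 5, 6 and 6 of the 7 slides that hold both tissues, although the samples that share a slide mostly differ in age.

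The myeloid and antigen-presenting members were led by the CD300 family, paired activating and inhibitory receptors of myeloid cells, and by CD33, an inhibitory sialic acid-binding lectin. CD300C ranged from 7.11 to 9.23 with a median of 8.35 in spleen and from 4.66 to 5.93 with a median of 5.26 in bone marrow, without overlap, and its difference of 2.89 ± 0.17 (adjusted p = 5.07e-08), or 7.43-fold, was the largest of all 60 members. CD300LD ranged from 7.94 to 8.77 with a median of 8.61 in spleen and from 6.93 to 7.50 with a median of 7.38 in bone marrow, also without overlap (1.20 ± 0.11, adjusted p = 1.78e-06). CD33 ranged from 6.98 to 9.17 with a median of 8.34 in spleen and from 6.25 to 6.98 with a median of 6.66 in bone marrow. The highest marrow sample of CD33 reached the lowest spleen sample, and the difference was 1.61 ± 0.11 (adjusted p = 2.86e-07), with spleen higher in 8 of 8 pairs and in 7 of 7 slides. CD274 (PD-L1), the ligand of the checkpoint receptor PD-1, differed by 1.14 ± 0.12 (adjusted p = 9.62e-06), with 2 of 8 marrow samples well above background. Smaller excesses in spleen were found for CD83, a marker of mature dendritic cells (1.01 ± 0.12, adjusted p = 2.56e-05), for CD300LF (0.99 ± 0.27, adjusted p = 0.00978), for CD1D, which presents lipids to NKT cells (0.43 ± 0.12, adjusted p = 0.0111), and for CD80, a ligand of CD28 (0.35 ± 0.07, adjusted p = 0.00188). The 2 probes of CD1D gave −0.11 and 0.97 and those of CD80 gave 0.66 and 0.03, so each of these calls rests mainly on 1 probe. Taken singly, the 2 probes of CD300LF gave less, 0.80 and 0.78. The CD300LF probes differ in level (7.0 and 4.7 in spleen), so leaving out a flagged spot shifts their average. The lowest CD300LF value in marrow was 2.97, in the 2-month male. CD300LB was called (0.49 ± 0.10, adjusted p = 0.00223) although no spleen sample and only 1 marrow sample were well above background, so no fold is given. CD200R1, the inhibitory receptor for CD200, was higher in bone marrow (−0.37 ± 0.10, adjusted p = 0.00946). CD68, a lysosomal protein of macrophages, ranged from 4.62 to 5.45 with a median of 5.22 in spleen and from 4.42 to 6.80 with a median of 4.83 in bone marrow, and its difference of 0.07 ± 0.24 (adjusted p = 0.834) did not pass. CD5L did not pass either (−0.07 ± 0.33, adjusted p = 0.892). CD86, CD1A and CD101 were not well above background in any sample of either tissue.

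Of the 4 pan-leukocyte members, CD53, a tetraspanin of white blood cells, ranged from 10.42 to 12.77 with a median of 12.63 in spleen and from 10.50 to 11.57 with a median of 10.96 in bone marrow. The lowest spleen values were the 1-week samples, the only ones under the highest marrow value, and the difference was 1.14 ± 0.08 (adjusted p = 2.05e-07), 2.2-fold. CD48, the ligand of CD244 and CD2, differed by 0.67 ± 0.10 (adjusted p = 2.36e-04), while CD84, a receptor of the same SLAM family as CD244, was higher in bone marrow (−0.49 ± 0.10, adjusted p = 0.00159). CD84 ranged from 6.61 to 8.16 with a median of 7.38 in spleen and from 7.62 to 8.22 with a median of 7.87 in bone marrow. The hyaluronan receptor CD44 did not pass (0.24 ± 0.11, adjusted p = 0.094), but its 4 probes were unlike. The 2 with spleen means of 7.5 and 7.4 gave differences of 0.61 and 0.62. The 2 with spleen means of 2.6 and 2.2 gave −0.14 each, and they enter the average with equal weight.

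Of the 7 members known from progenitors, platelets, vessels and stroma, 4 were higher in bone marrow: CD9, CD34, CD109 and CD93. CD9, a tetraspanin abundant on platelets and megakaryocytes, ranged from 10.12 to 12.05 with a median of 10.87 in spleen and from 11.28 to 13.09 with a median of 12.47 in bone marrow. Marrow was higher in all 8 pairs, by 2.44-fold (−1.28 ± 0.14, adjusted p = 1.19e-05). CD34, the antigen of hematopoietic progenitors and of endothelium, ranged from 6.92 to 8.16 with a median of 7.74 in spleen and from 7.41 to 8.73 with a median of 8.22 in bone marrow, and marrow was again higher in 8 of 8 pairs (−0.46 ± 0.13, adjusted p = 0.0101). CD109, a GPI-anchored protein of platelets and activated T cells, differed by −0.65 ± 0.11 (adjusted p = 4.45e-04). Its 2 probes gave −1.23 and −0.07, the latter at a spleen mean of only 2.7, so this call rests mainly on 1 probe. CD93, found on endothelium and early progenitors, differed by −0.40 ± 0.08 (adjusted p = 0.00197), with 2 of 8 spleen and 5 of 8 marrow samples well above background on the probes under its symbol. A second CD93 probe set ranged over the 16 samples from 8.77 to 11.11 and did not pass (0.15 ± 0.18, adjusted p = 0.526), so the call rests on the symbol set. CD300LG, an endothelial member of the CD300 family, was the only gene of this list called higher in spleen (0.32 ± 0.11, adjusted p = 0.0352), and that call was lost when any of 12 of the 16 samples was left out, with an adjusted p of up to 0.086. It also rests on 1 of its 5 probes, which gave 1.82, while the other 4 gave −0.17 to 0.003. CD151, a tetraspanin of platelets and endothelium (0.17 ± 0.10, adjusted p = 0.168), and CD248 (endosialin), a stromal antigen (0.22 ± 0.14, adjusted p = 0.232), did not pass. Markers of other cells of both tissues differed as well. Of the 10 megakaryocyte markers, 9 were higher in bone marrow and none in spleen, with a mean log2 level over the list of 7.22 to 8.65 in marrow and 4.41 to 7.04 in spleen. All 10 neutrophil granule markers and 15 of 17 erythroid markers were higher in marrow as well, and the bone and stroma markers were higher in marrow in 7 of 7. Of the 8 markers of spleen endothelium and stroma, 6 were higher in spleen and 1 in marrow, with a mean level of 7.60 to 8.93 in spleen and 5.05 to 6.31 in marrow. None of these 5 lists held a gene that stayed under the detection limit in all samples of a tissue, and their part in the CD differences was not tested.

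Of the 9 broadly expressed members, 3 passed the test. CD99L2, a widely expressed adhesion protein, and CD63, a tetraspanin of lysosomes and platelet granules, were higher in spleen by 0.47 ± 0.11 (adjusted p = 0.00484) and by 0.25 ± 0.09 (adjusted p = 0.047), and CD200, the ligand of CD200R1, was higher in bone marrow by 0.40 (adjusted p = 0.0231). The CD63 call was lost in 13 and the CD200 call in 5 of the 16 fits without 1 sample. The complement regulators CD46, CD55 and CD59 did not pass, the symbol probes of CD46 and CD59 being not well above background in either tissue; a second probe set of CD46 ranged over the 16 samples from 6.95 to 7.83 and did not pass either. CD55 varied among the marrow samples, from 5.68 to 7.97 with a median of 6.54, and ranged from 6.17 to 6.76 with a median of 6.49 in spleen. Of the 2 genes that are no CD antigens, CD2BP2 was higher in bone marrow (−0.40 ± 0.08, adjusted p = 0.00103) and CD3EAP did not pass (−0.05 ± 0.17, adjusted p = 0.851).

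Genes of the same pathways that carry no CD symbol give the context. Of 13 T cell receptor signaling genes, 9 were higher in spleen and none in bone marrow. LCK, the kinase that phosphorylates the CD3 chains, differed by 2.32 ± 0.15 (adjusted p = 1.20e-07), and ZAP70, the kinase recruited to them, by 2.18 ± 0.17 (adjusted p = 5.58e-07). In the B cell receptor list 9 of 13 genes were higher in spleen, among them BLK, a kinase of the B cell receptor (1.32 ± 0.14, adjusted p = 1.02e-05). MS4A1 (CD20) was the 1 gene of that list higher in bone marrow (−0.52 ± 0.11, adjusted p = 0.00264). In the myeloid surface list 7 of 13 genes were higher in spleen and 1 in bone marrow; CSF1R, the macrophage growth factor receptor, differed by 2.10 ± 0.10 (adjusted p = 8.97e-09) and MRC1, the mannose receptor, by −0.56 ± 0.13 (adjusted p = 0.00351). A further 17 CD genes of the lineage lists stand on the array outside the name rule, all but CD200R1L under a transcript accession. Among them 8 were higher in spleen and 5 in bone marrow, against 23.7% and 20.1% of all genes. Of these, CD5, a T cell receptor regulator, ranged from 8.03 to 11.20 with a median of 10.33 in spleen and from 5.35 to 9.38 with a median of 8.01 in bone marrow (2.38 ± 0.18, adjusted p = 3.92e-07). CD4, the helper T cell coreceptor, differed by 0.48 ± 0.09 (adjusted p = 9.66e-04), and CD74, the invariant chain of MHC class II, by 2.28 ± 0.11 (adjusted p = 1.61e-08). CD14, the lipopolysaccharide coreceptor of monocytes, was higher in bone marrow, and ranged from 7.19 to 8.17 with a median of 7.87 there and from 6.17 to 7.69 with a median of 7.02 in spleen (−0.83 ± 0.13, adjusted p = 1.85e-04). CD163, the hemoglobin scavenger receptor of macrophages (−0.31 ± 0.33, adjusted p = 0.491), and the fatty acid receptor CD36 (0.07 ± 0.20, adjusted p = 0.817) did not pass. CD22, CD52 and CD177 were not analysed here.

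The second comparison asked how the members change with age, from the 4 samples at 1 and 4 weeks to the 4 samples at 2 and 4 months. In spleen 20 of 60 members rose, 33.3% against 11% of all genes, and 3 fell, 5% against 9.95% of all genes. In bone marrow 13 members rose, 21.7% against 5.51%, and 1 fell, 1.67% against 4.25%. All 14 members called in bone marrow were also called in spleen, in the same direction. Of the 16 T and NK cell members 10 rose in spleen and 9 in bone marrow. Of the 4 pan-leukocyte members, CD53, CD48 and CD44 rose in both. Among the 7 B cell members 4 rose in spleen and none in bone marrow, and among the 15 myeloid members 3 rose in spleen and 1 in bone marrow. In the progenitor and stromal list 3 of 7 fell in spleen and 1 in bone marrow, and none rose. No broadly expressed member was called in either tissue.

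**Figure D2:**
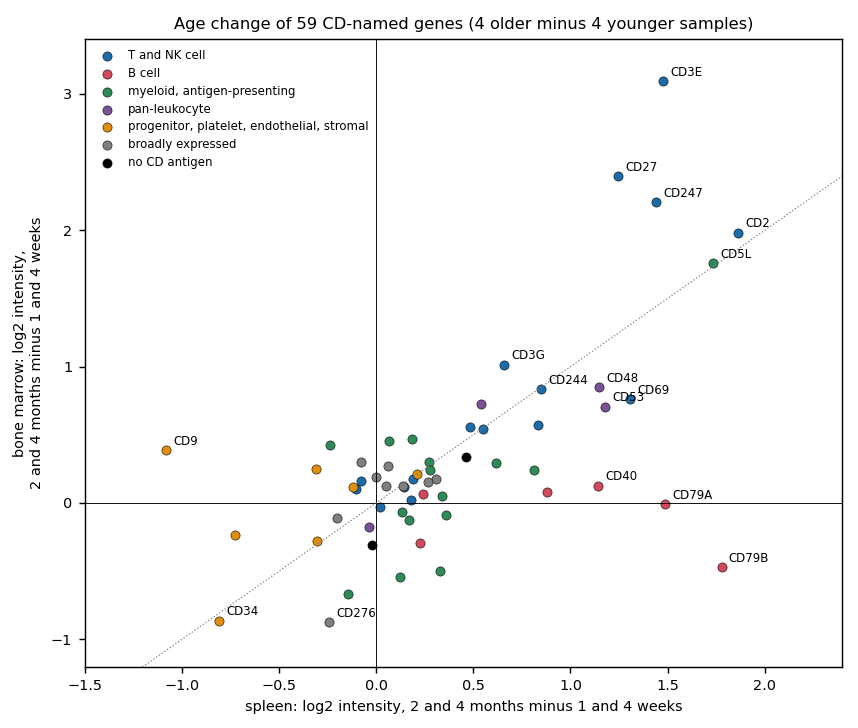
Change in log2 intensity from 1 and 4 weeks to 2 and 4 months of 59 members, in spleen on the horizontal and in bone marrow on the vertical axis (4 older minus 4 younger samples in each); the dotted line marks equal change. T cell members lie in the upper right with CD3E at 1.48 in spleen and 3.10 in bone marrow, the B cell members CD40, CD79A and CD79B lie to the right near or under the horizontal axis, and CD34 lies in the lower left.

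CD2 rose in both tissues. In spleen the male and the female had values of 6.69 and 6.57 at 1 week, 7.90 and 7.71 at 4 weeks, 9.22 and 9.54 at 2 months and 8.74 and 8.82 at 4 months. In bone marrow they were 5.00 and 4.61 at 1 week, 5.29 and 5.82 at 4 weeks, 7.04 and 7.04 at 2 months and 7.25 and 7.33 at 4 months. The 4 older samples lay above the 4 younger ones in each tissue, and the change was 1.86 ± 0.14 (adjusted p = 5.68e-06) in spleen and 1.98 ± 0.14 (adjusted p = 1.07e-05) in bone marrow, 3.64-fold and 3.95-fold. CD3E had the largest rise of all members in bone marrow, with values of 5.89 and 5.22 at 1 week, 5.94 and 7.27 at 4 weeks, 9.48 and 8.62 at 2 months and 8.97 and 9.63 at 4 months, a change of 3.10 ± 0.30 (adjusted p = 9.05e-05) or 8.54-fold. In spleen CD3E stood at 8.19 and 7.67 at 1 week, 10.54 and 10.70 at 4 weeks, 10.88 and 10.36 at 2 months and 10.99 and 10.78 at 4 months, so that most of the difference lay between 1 and 4 weeks, and the change was 1.48 ± 0.30 (adjusted p = 0.00427). CD247 in spleen was 9.66 and 9.80 at 1 week and between 12.41 and 12.63 in the 6 samples from 4 weeks on, whereas in bone marrow it was 7.84 and 7.73 at 1 week, 8.43 and 8.95 at 4 weeks, 10.29 and 10.39 at 2 months and 10.34 and 10.77 at 4 months. The change was 1.44 ± 0.14 (adjusted p = 2.31e-05) in spleen and 2.21 ± 0.14 (adjusted p = 4.99e-06) in bone marrow. CD27 rose by 1.25 ± 0.29 (adjusted p = 0.00958) in spleen and by 2.40 ± 0.29 (adjusted p = 4.64e-04) in bone marrow, and CD3G by 0.66 ± 0.11 (adjusted p = 0.00123) and 1.01 ± 0.11 (adjusted p = 2.20e-04). CD244, CD226, CD69 and CD96 also rose in both tissues, by 0.48 to 1.31 in spleen and 0.56 to 0.83 in bone marrow. The spleen rise of CD226 and CD244 lay mostly between 1 and 4 weeks. CD226 in spleen was 3.78 and 4.06 at 1 week, 5.49 and 5.44 at 4 weeks and 4.78 to 5.71 later. CD244 in spleen was 7.59 and 7.78 at 1 week, 10.05 and 9.90 at 4 weeks and 9.20 to 10.04 later. Marrow CD226 was 5.79 and 5.83 at 4 weeks, 6.41 and 6.27 at 2 months and 5.80 and 5.82 at 4 months. In bone marrow CD69 and CD96 were not well above background in any sample with the probes under their symbols. The second probe set of CD96 rose by 1.43 in spleen and 1.02 in marrow (adjusted p = 9.11e-05 and 0.00272). CD3D rose in spleen (0.55 ± 0.17, adjusted p = 0.0346), where the call was lost in 8 of 16 fits without 1 sample, with an adjusted p of up to 0.116. In bone marrow its change was 0.54 ± 0.17 (adjusted p = 0.0619). CD8A, CD8B, CD28, CD160, CD6 and CD40LG passed in neither tissue. Of the T cell receptor signaling genes without a CD symbol, 8 of 13 rose in spleen and 7 in bone marrow, none fell, and ZAP70 rose by 1.87 ± 0.24 (adjusted p = 1.62e-04) and 3.62 ± 0.24 (adjusted p = 6.24e-06).

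**Figure D3:**
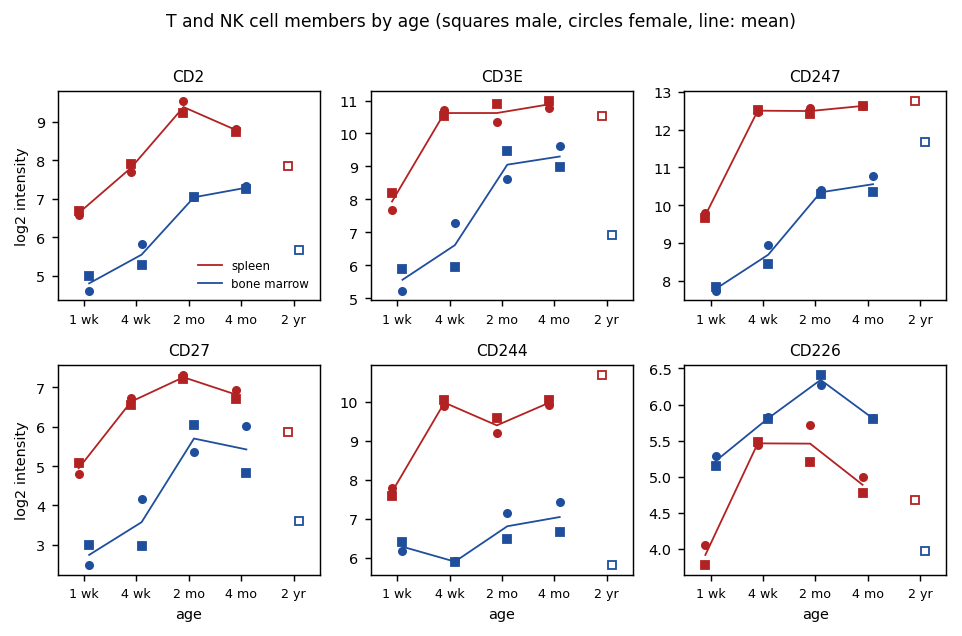
Log2 intensity of 6 T and NK cell members by age in spleen (red) and bone marrow (blue); squares are males, circles females, lines join the means of the pairs up to 4 months, and open squares are the single 2-year-old male. The spleen values of CD247 step from 9.66 and 9.80 at 1 week to 12.41 or more from 4 weeks on, those of bone marrow climb to 10.77, and CD226 is the panel in which marrow lies above spleen up to 4 months.

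Of the B cell members, CD79B, CD79A, CD40 and CD180 rose in spleen. CD79B was 10.32 and 9.86 at 1 week, 11.56 and 11.72 at 4 weeks, 12.45 and 12.78 at 2 months and 12.58 and 12.76 at 4 months, with all older samples above all younger ones and a change of 1.78 ± 0.25 (adjusted p = 3.56e-04), 3.43-fold. In bone marrow CD79B was 10.28 and 10.03 at 1 week, 10.91 and 11.17 at 4 weeks, 11.09 and 11.06 at 2 months and 8.44 and 9.90 at 4 months, where the lowest values were the 4-month samples, and the change of −0.47 ± 0.25 (adjusted p = 0.277) did not pass. CD79A was 6.46 and 5.72 at 1 week, 7.95 and 7.94 at 4 weeks, 8.29 and 9.05 at 2 months and 8.22 and 8.46 at 4 months in spleen, a change of 1.49 ± 0.26 (adjusted p = 0.00163). In bone marrow it was 5.92 and 5.62 at 1 week, 6.38 and 6.65 at 4 weeks, 7.17 and 6.76 at 2 months and 4.71 and 5.89 at 4 months, a change of −0.01 ± 0.26 (adjusted p = 0.989). CD40 rose in spleen by 1.14 ± 0.16 (adjusted p = 3.95e-04) against 0.13 ± 0.16 (adjusted p = 0.694) in bone marrow, and CD180 rose in spleen by 0.88 ± 0.23 (adjusted p = 0.015) against 0.08 ± 0.23 (adjusted p = 0.874) in bone marrow, the latter not passing for either gene. CD37 and CD72 passed in neither tissue. Of the 7 plasma cell markers 5 rose in spleen, 1 fell and 2 rose in bone marrow, with a mean level of 6.18 to 7.68 in the younger and 7.76 to 8.01 in the older spleens, and their part in these changes was not tested. In the B cell receptor list without CD symbols 8 of 13 genes rose in spleen and 3 in bone marrow; BLK rose in both (1.87 ± 0.20, adjusted p = 5.17e-05 and 2.09 ± 0.20, adjusted p = 8.32e-05).

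The difference between the age changes of the tissues was itself called for 5 members, 8.33% against 5.29% of all genes. The age change was larger in spleen for CD79B by 2.25 ± 0.36 (adjusted p = 0.00325), for CD79A by 1.49 ± 0.37 (adjusted p = 0.0375) and for CD40 by 1.02 ± 0.23 (adjusted p = 0.0252). It was larger in bone marrow for CD247, with a difference of −0.77 ± 0.20 (adjusted p = 0.0424), and CD3E fell just outside the threshold at −1.62 ± 0.43 (adjusted p = 0.0503). The younger group pools 1 and 4 weeks. In spleen CD247 had already risen by 4 weeks, from 9.66 and 9.80 to 12.53 and 12.47, and was 12.62 and 12.63 at 4 months. In bone marrow it was 7.84 and 7.73 at 1 week and 10.34 and 10.77 at 4 months. The CD247 difference thus depends on where the ages are split. CD9 fell in spleen, from 10.85 to 12.05 in the younger to 10.12 to 10.89 in the older samples (−1.08 ± 0.20, adjusted p = 0.00214), and was 11.28 to 12.75 and 12.08 to 13.09 in bone marrow (0.39 ± 0.20, adjusted p = 0.255). The difference for CD9 was −1.47 ± 0.28 (adjusted p = 0.00993). The calls for CD79B and CD9 held in all 16 fits without 1 sample, while those for CD247, CD79A and CD40 were lost in 13, 12 and 8 of them. The CD247 call was also lost over all 7 tissues, with or without slide as a term, with an offset of 50 and with median scaling, and the CD79A call on the processed signal, in the authors' table and with sex as a block. The count of 5 went down to 3 without the male marrow at 1 or 4 weeks, the female spleen at 2 months or the male spleen at 4 months, and to 2 without the female spleen at 1 week, 4 weeks or 4 months, the male spleen at 4 weeks or the female marrow at 1 week. Chosen after their values were seen, BLNK, BTK and SYK of the B cell receptor list had age changes that differed between the tissues in the same direction as CD79B. Being picked in this way, they do not count as support for the CD79B difference. BLK of that list rose in both tissues, with a slightly larger change in bone marrow, and the calls over the whole list are not given here.

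**Figure D4:**
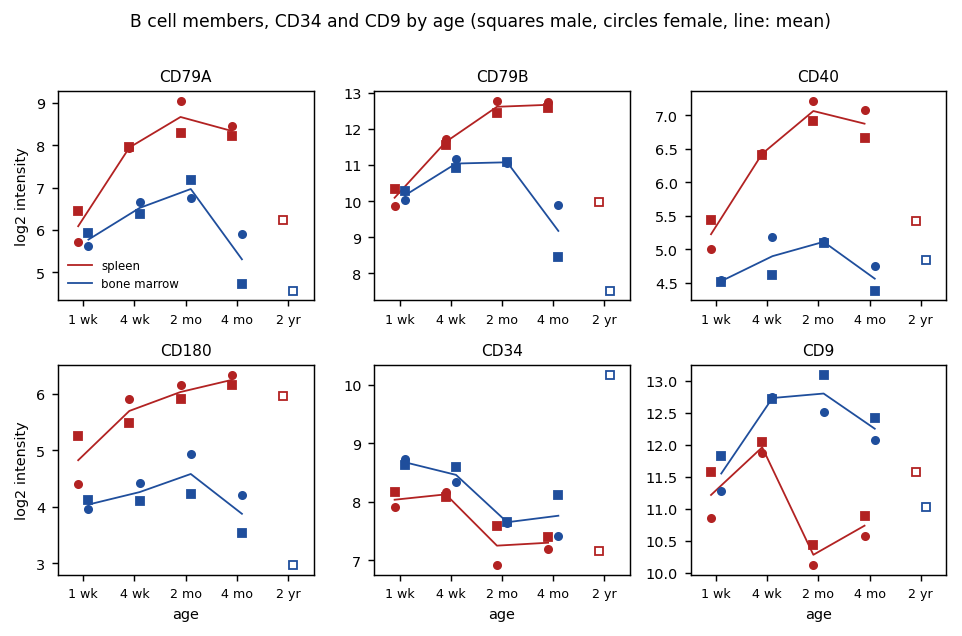
Log2 intensity of 4 B cell members, CD34 and CD9 by age in spleen (red) and bone marrow (blue); squares are males, circles females, lines join the means of the pairs up to 4 months, and open squares are the single 2-year-old male. CD79B reaches 12.45 or more in the 4 older spleen samples and 9.90 or less in the 4-month marrow samples, and CD34 is lower at 2 and 4 months than at 1 and 4 weeks in both tissues.

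CD34 fell in both tissues. In spleen it was 8.16 and 7.91 at 1 week, 8.09 and 8.16 at 4 weeks, 7.58 and 6.92 at 2 months and 7.40 and 7.20 at 4 months, and in bone marrow 8.62 and 8.73 at 1 week, 8.59 and 8.33 at 4 weeks, 7.66 and 7.64 at 2 months and 8.11 and 7.41 at 4 months. The older samples lay below the younger ones in each tissue, with a change of −0.81 ± 0.18 (adjusted p = 0.00634) in spleen and −0.86 ± 0.18 (adjusted p = 0.0105) in bone marrow. CD109 fell in spleen (−0.73 ± 0.16, adjusted p = 0.00562) but did not pass in bone marrow (−0.24 ± 0.16, adjusted p = 0.383). Markers of blood cell formation moved with these changes in spleen, where 14 of 17 erythroid, 8 of 10 neutrophil granule and 7 of 10 megakaryocyte markers fell and none rose. The mean log2 level of the erythroid list was 10.40 to 10.53 in the 1-week spleens, 7.36 to 10.53 over the 4 younger and 6.25 to 6.60 over the 4 older ones, and that of the megakaryocyte list 6.53 to 7.04 and 4.41 to 4.57. In bone marrow the erythroid list lay between 9.91 and 10.93 over the 8 samples, with 1 of 17 markers rising, 3 of 10 megakaryocyte markers fell, and 5 of 6 adipocyte markers rose, with a mean level of 4.88 to 5.35 in the younger and 5.81 to 7.80 in the older samples; LPL of that list stayed under the detection limit. The part of these cells in the CD changes was not tested.

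Among the myeloid and pan-leukocyte members, CD5L rose the most. In spleen it was 10.62 and 11.04 at 1 week, 10.16 and 10.97 at 4 weeks, 13.79 and 12.41 at 2 months and 11.59 and 11.93 at 4 months, and in bone marrow 10.67 and 10.23 at 1 week, 9.73 and 12.37 at 4 weeks, 13.23 and 13.24 at 2 months and 11.58 and 12.00 at 4 months. The female 4-week marrow sample lay above the 4-month samples, and the change was 1.73 ± 0.47 (adjusted p = 0.02) in spleen and 1.76 ± 0.47 (adjusted p = 0.0364) in bone marrow. These calls were lost in 4 and 11 of the 16 fits without 1 sample, with adjusted p of up to 0.0882 and 0.116. CD83 and CD274 rose in spleen, by 0.81 ± 0.17 (adjusted p = 0.00519) and 0.62 ± 0.17 (adjusted p = 0.0226). CD53 rose by 1.18 ± 0.11 (adjusted p = 1.89e-05) in spleen and 0.71 ± 0.11 (adjusted p = 0.0021) in bone marrow, CD48 by 1.15 ± 0.15 (adjusted p = 1.84e-04) and 0.85 ± 0.15 (adjusted p = 0.00424), and CD44 by 0.54 ± 0.15 (adjusted p = 0.0237) and 0.73 ± 0.15 (adjusted p = 0.0112). The 1-week spleens stood apart here too, with CD53 at 10.42 and 10.59 against 12.46 to 12.77 in the 6 later samples. CD33 was 6.98 and 7.40 in the 1-week spleens, 9.17 and 9.04 at 4 weeks and 8.08 to 8.91 later, so that its highest values fell in the younger group and the change of 0.27 ± 0.16 (adjusted p = 0.283) did not pass. In the myeloid surface list 6 of 13 genes rose in spleen and 4 in bone marrow. Of the age calls, those of CD180, CD226, CD274 and CD44 in spleen were lost in 4 to 5 of the 16 fits without 1 sample, with the highest adjusted p without the female spleen at 4 months (CD226, CD274) or 2 months (CD44) or the male spleen at 4 weeks (CD180). In bone marrow those of CD226, CD244, CD44, CD69 and CD96 were lost in 1 to 4 of them. Without the male bone marrow at 4 weeks, 8 in place of 14 members were called for age in bone marrow, and 1139 in place of 2315 of all genes.

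The 2-year-old male gave 1 sample per tissue, described without a test because age, housing and slide cannot be told apart. In spleen 48 of the 60 members lay within the range of the 8 younger samples and 12 above it, 20% against 15.7% of all genes, and none below it, where 14.8% of all genes lay. The highest excess over the mean of the 2- and 4-month samples was that of CD200R1, at 6.32 against a younger range of 4.40 to 5.00. Among B cell genes, CD79A at 6.24, CD79B at 9.98 and CD40 at 5.42 were near the 1-week spleen values, whereas CD180 at 5.96 and CD37 at 9.36 were near the means of 6.14 and 9.56 at 2 and 4 months. In bone marrow 25 members lay within the younger range, 22 below and 13 above it, 36.7% and 21.7% against 25.6% and 27.6% of all genes. CD5L was 6.15 against 9.74 to 13.24 in the younger marrow, CD33 4.60 against 6.25 to 6.98, CD48 5.81 against 6.87 to 8.31, CD79B 7.50 against 8.44 to 11.17 and CD226 3.97 against 5.15 to 6.41. CD3E, at 6.90, and CD2, at 5.67, lay below all 2- and 4-month marrow samples. Above the younger range were CD34 at 10.17, CD93 at 5.54, CD200 at 10.66, CD99L2 at 11.16 and CD247 at 11.67. In the same marrow sample the mean level of the adipocyte list was 9.75 against 5.81 to 7.80 at 2 and 4 months, that of the erythroid list 4.89 against 9.91 to 10.93 in the 8 younger samples, and that of the neutrophil granule list 6.96 against 10.61 to 11.09.

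Across the 7 tissues sampled in both sexes, 41 of the 60 members were higher in spleen and bone marrow than in cortex, hypothalamus, cerebellum, liver and kidney, 68.3% against 40.5% of all genes, and 9 were lower, 15% against 36.7% (limma, tissue by age). The contrast sets the mean of spleen and marrow against the mean of the 5 tissues, any of which may lie higher. At 2-fold or more 19 were higher, 31.7% against 11% of all genes, and 1 lower, 1.67% against 12.6%. CD5L (5.41 ± 0.24, adjusted p = 1.18e-20), CD79B (4.84 ± 0.09, adjusted p = 2.61e-31), CD84 (4.40 ± 0.07, adjusted p = 9.71e-34), CD3E (4.37 ± 0.11, adjusted p = 7.58e-28) and CD244 (4.33 ± 0.07, adjusted p = 7.67e-33) had the largest excess over the mean of the 5 tissues, although CD5L was higher in liver (13.95 ± 0.25, SD) than in spleen (11.56 ± 1.15) or marrow (11.63 ± 1.32). By the mean up to 4 months over all 9 tissues, spleen held the highest level of 24 members, 10 of them T and NK cell and 8 myeloid genes, liver of 9, bone marrow of 6, cerebellum of 6, ovary of 4, kidney, cortex and testis of 3 each and hypothalamus of 2. The shares over all genes are not given here, and some of these places are near-ties or lie at the floor. Spleen led by 0.015 for CD8B, 0.043 for CD6 and 0.074 for CD68. The testis members CD46, CD72 and CD8A had means of 2.68, 2.78 and 2.39, and the detection limit had a median of 2.89 over the arrays. Probes of some lineage genes gave their signal elsewhere, and whether these probes measure the named gene was not tested. CD37 (−0.75 ± 0.08, adjusted p = 1.40e-10), CD40LG (−0.39 ± 0.07, adjusted p = 1.13e-05), CD80 (−0.43 ± 0.04, adjusted p = 5.37e-13) and CD160 (−0.30 ± 0.05, adjusted p = 9.96e-07) were lower in spleen and marrow than in the 5 tissues. For CD80 the contrast rests on the symbol set, at 11.19 to 11.98 over the spleen and marrow samples, and its second probe set, at 3.77 to 7.18, was compared here only between spleen and marrow and between ages. CD3G was 8.60 ± 0.24 (SD, n = 8) in cerebellum against 8.48 ± 0.39 in spleen. CD247 was 11.18 ± 0.57 in hypothalamus, 10.65 ± 0.40 in cerebellum and 10.45 ± 0.36 in cortex, levels above that of bone marrow (9.34 ± 1.25) and below the mean of spleen (11.84 ± 1.30).

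**Figure D5:**
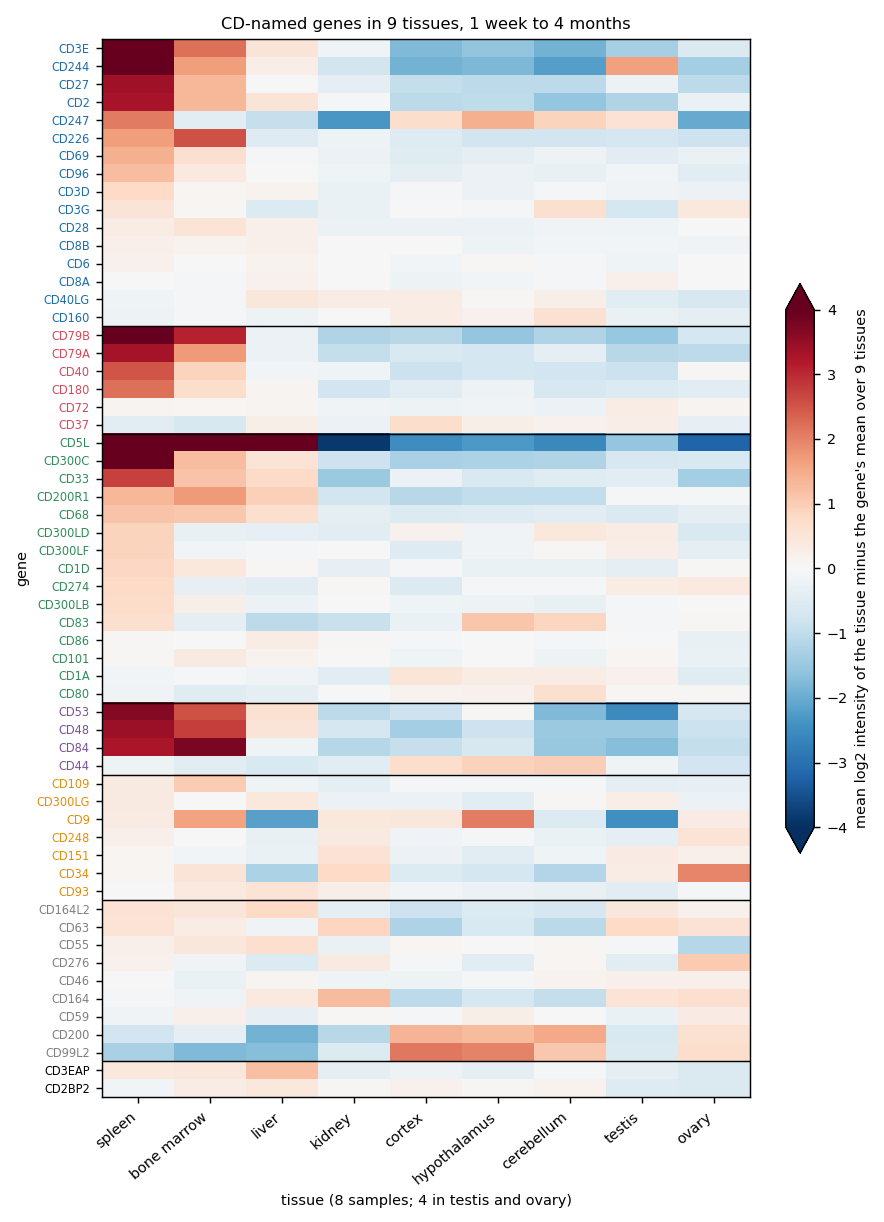
Mean log2 intensity of each of 59 members in 9 tissues up to 4 months, minus the mean of that gene over the tissues (8 samples per tissue, 4 in testis and ovary; color scale limited to ±4), with the genes grouped by lineage and their names colored as in the plot of the spleen minus marrow differences. The deepest red cells of the T, B and myeloid genes are in spleen and bone marrow, CD5L is also deep red in liver, and CD99L2 and CD200 are red in the 3 brain regions.

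In the other tissues the members that stood out were few. CD5L ranged from 13.64 to 14.27 with a median of 13.98 in liver, 11.56 ± 1.15 in spleen and 3.20 ± 0.55 in kidney, and liver was also the tissue other than spleen and marrow with the clearest CD200R1 (from 3.74 to 4.83 with a median of 4.31). CD99L2 was highest in the brain, at 12.64 ± 0.16 in cortex, 12.51 ± 0.12 in hypothalamus and 11.59 ± 0.15 in cerebellum, against 9.24 ± 0.38 in spleen and 8.77 ± 0.42 in bone marrow. It was the only member lower by 2-fold or more in spleen and marrow (−2.11 ± 0.06, adjusted p = 1.77e-25), and CD200, which neurons carry, was also brain-high, from 9.75 to 10.43 in cortex against 6.97 to 8.74 in spleen. Kidney had the highest mean level of CD164, a sialomucin (from 11.03 to 11.54 with a median of 11.37), and of CD63, at a mean of 11.17 (from 11.02 to 11.38 with a median of 11.13). CD34 was highest in ovary, at 9.56 ± 0.10 (SD, n = 4), where its 4 values lay above all samples of spleen and of the younger marrow. In testis CD63 was 11.13 ± 0.68 and CD200R1 3.25 ± 0.25 over 4 samples. For these genes the lowest testis sample lay only 0.27 and 0.24 above the median of the other tissues' samples, so neither stood out clearly. Chosen after their values were seen, CD244 was 3.72, 5.77, 8.12 and 8.31 and CD247 8.62, 9.36, 11.68 and 11.73 in the testis at 1 week, at 4 weeks and at 2 and 4 months, the last 2 ages lying above all younger marrow samples for both genes.

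For 7 members the array held a second set of probes under a pig transcript accession, designed for the same gene by the RefSeq table. CD48 and CD96 gave the same calls with both sets: the second set differed between spleen and marrow by 0.54 ± 0.10 (adjusted p = 7.22e-04) for CD48 and by 1.62 ± 0.12 (adjusted p = 3.49e-07) for CD96, and both rose with age in both tissues. The second set of CD80 showed a larger difference, 1.77 ± 0.13 (adjusted p = 5.08e-07) against 0.35 for the set under the symbol, and rose with age in spleen by 1.09 (adjusted p = 0.00142) and in marrow by 0.78 (adjusted p = 0.0232). CD93 was called higher in marrow by the symbol set, whereas its accession set gave 0.15 ± 0.18 (adjusted p = 0.526). CD101 was called higher in marrow by the accession set alone (−0.48 ± 0.12, adjusted p = 0.00612), and CD46 and CD55 passed with neither set. Within the symbol sets, each member had 2 to 6 probes, 131 in all, and for 12 members the probes differed in sign between the tissues, in none by more than 0.5 log2 units both ways.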

How the data were processed

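Total RNA of minipig tissues frozen on dry ice was labeled with Cy3 and hybridized to single-color custom Agilent arrays of 62976 spots, each with 60-base probes, of which 61289 are gene spots. As deposited, the scanner files hold raw median spot intensities that the authors extracted with Agilent Feature Extraction 11.5.1.1, per the submitters' processing notes, without normalization between arrays. The authors also deposited a table of log2 values of the same arrays, with column medians all at 4.57 and of unstated centring, which served only as an alternative. Its values correlated at 0.991 to 0.998 per array with the log2 of the scanner's processed signal of the same spots. They were not correlated with the normalized values used here. The 16 arrays of the 2-year-old male, among them 8 repeat hybridizations of kidney that were averaged as 1 sample, lay on 2 slides of their own and were left out of the tests.

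Intensities were background-corrected with normexp (saddle, offset 0) and quantile-normalized over gene and negative control spots, flagged spots were left out, and spots, probes and then genes were averaged on the log2 scale, for 23722 genes. Renal pelvis was normalized with the rest but not used. A detection limit was set for each array at the 95th percentile of its negative controls. Spleen and bone marrow up to 4 months were fitted with limma 3.58.1 in R 4.3.3 over tissue by age, with 8 residual degrees of freedom, and the 7 tissues sampled in both sexes likewise with 28. Benjamini-Hochberg adjustment ran over all genes with a threshold of 0.05. Errors after ± are standard errors of a difference and, where marked SD, standard deviations, and a fold is 2 to the power of the difference. The number of arrays limits the precision. Nothing in the labels ties the samples of an age and sex to 1 animal.

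Genes named in the text were a set fixed by symbol (CD2, CD3D, CD3E, CD3G, CD4, CD5, CD6, CD8A, CD8B, CD247, CD22, CD40, CD72, CD79A, CD79B, CD14, CD33, CD68, CD74, CD86, CD163, CD177, CD34, CD36, CD93, CD44, CD48, CD52 and CD53), up to 3 called members per lineage and direction with the largest spleen minus marrow difference, up to 5 per tissue and direction for age and up to 5 for the difference between age changes, up to 2 members per other tissue, and the 2 pattern matches that are no CD antigens. Other names were chosen after their values were seen. Results of 1 member are not reported here; it is part of the counts and medians and is not drawn. The members and lists were chosen with earlier results of these data known. Of the 10818 accessions on the array, 3019 were matched to a symbol by the RefSeq table of Sscrofa11.1. Alternatives were the scanner's processed signal, an offset of 50, median scaling, the authors' table, the median of probes, a filter on low genes, a trended robust variance, a 2-fold minimum, an F test over the 4 ages, slide as a random block or fixed term, a replicate block, the 2-year samples added, all 7 tissues in 1 fit and each sample left out. Slide as a fixed term over the 7 tissues was chosen after seeing the data. The fits were tested on simulated data. Figures were drawn with matplotlib 3.10.9 in Python 3.11.15.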

Additional observations from a re-analysis of the deposited data

Results flagged for a closer look

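The change with age, older minus younger samples, differed between spleen and bone marrow for 5 members by the interaction term of limma, 8.33% against 5.29% of all genes. CD79B had the largest difference, spleen minus marrow, at 2.25 log2 units (adjusted p = 0.00325), rising in spleen and not called in bone marrow. The difference was 1.49 for CD79A (adjusted p = 0.0375) and 1.02 for CD40 (adjusted p = 0.0252). It was −1.47 for CD9 (adjusted p = 0.00993), which fell in spleen and was not called in bone marrow. For CD247, which rose in both tissues, it was −0.766 (adjusted p = 0.0424). Spleen CD247 had already risen by 4 weeks, an age that is part of the younger group, so its difference depends on the split of ages. The CD247, CD79A and CD40 calls were lost in 13, 12 and 8 of the 16 fits without 1 sample, CD247 also over all 7 tissues and CD79A with sex as a block, while those of CD79B and CD9 held in all 16.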

How the results depend on the processing

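The medians of the T and NK cell, B cell and myeloid members kept their direction under the alternatives run for them; the other medians were computed once. With at least 2-fold required, 15 members were higher in spleen and 1 in bone marrow, 12 changed with age in spleen and 6 in bone marrow, and 19 were higher and 1 lower in spleen and marrow than in the 5 tissues. Over all genes, 1413 changed with age by at least 2-fold in spleen and 655 in bone marrow, in place of 4976 and 2315. Slide as a fixed term without age gave 16 and 4 calls between the tissues, and 3009 and 2364 over all genes in place of 5633 and 4769. The fit over all 7 tissues gave 9 differences between the age changes in place of 5, with 4 of the 5 kept and CD247 lost. Over all genes it gave 2051 in place of 1254, and the cause was not tested. The median spleen minus marrow difference of the T and NK cell members was 0.753 on the processed signal, 0.753 in the authors' table and 0.205 with an offset of 50, which gave 0.0889 for the myeloid members; an offset shrinks differences of weak signals by construction. Without 1 sample the counts ranged from 25 to 29 (spleen higher), 8 to 11 (marrow higher), 17 to 23 (age, spleen), 8 to 16 (age, bone marrow), 2 to 6 (difference between the age changes), 39 to 42 and 8 to 9 (against the 5 tissues), and the medians from 0.522 to 0.638 for T and NK cell, 1.21 to 1.58 for B cell and 0.349 to 0.504 for myeloid members. With the 2-year samples added, 21 members were called for age in bone marrow, of which 8 were among the 14, and 2 of the 14 changed sign, as did 1 of the 36 tissue differences. Over all genes the age calls in bone marrow went from 2315 to 5968 in that fit. Samples of the same age and sex correlated at 0.0388 to 0.15 in their deviations, so they were not taken as pairs; the replicate block of age and sex kept all 36 tissue calls (27 and 9), and sex as a replicate block gave 23, 15 and 4 for the age contrasts in place of 23, 14 and 5, losing CD3D and gaining CD300LD in spleen, gaining CD1A in bone marrow and losing CD79A for the difference. Slide as a fixed term over the 7 tissues gave 20 age calls in spleen, 19 of them among the 23. The F test over 4 ages called 29 members in spleen and 17 in bone marrow. It called 7469 and 2839 of all genes, in place of 4976 and 2315. The weak signal of the members not well above background limits what can be seen of CD8A, CD28, CD72, CD86 and the other genes so named.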
